A study of Mus musculus with 8 samples.

Results

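The cytochrome P450 genes of families 1 to 3 were examined in livers of fructose-fed mice with and without hepatocyte Rbfox2. Members were all protein-coding genes of the count table whose symbol was Cyp1, Cyp2 or Cyp3 followed by a subfamily letter and a number. This gave 58 genes in 16 subfamilies, out of 46078 genes in the table. The rule left out 12 other genes with a Cyp1 to Cyp3 name, 9 pseudogenes and the protein-coding Cyp2ab1, Cyp3a41a and Cyp3a41b. RNA-seq of poly(A) RNA was performed on livers of 5 wild-type (WT) and 3 Rbfox2 KO mice, all of which drank water with 30% (w/v) fructose for 22 weeks beside control chow and were fasted before collection. In the Rbfox2 KO mice a floxed Rbfox2 allele was deleted by Cre under the albumin promoter, which acts in hepatocytes, so the other cells of the liver kept the gene. The mice were of the C57BL6/J background, started the diet at 8 weeks of age and were male unless stated otherwise. By the study's methods the control mice of this line were floxed but lacked Cre, while the labels call them wild-type. The comparison asks which P450 transcripts differ when this splicing regulator is lost from hepatocytes.

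P450 enzymes are haem proteins of the endoplasmic reticulum that insert 1 oxygen atom into a substrate with electrons from P450 oxidoreductase (Por) or cytochrome b5. Families 1 to 3 oxidise drugs, pollutants, steroids, retinoids and polyunsaturated fatty acids, and the liver is their main site. Most of their genes lie in tandem clusters of close paralogues and are controlled by the receptors AHR (family 1), CAR (Cyp2b) and PXR (Cyp3a), by liver transcription factors such as HNF4A, and, for many mouse members, by the pulsatile or continuous growth hormone pattern that separates males from females. Several, with Cyp2e1 and Cyp1a2 among them, are expressed mainly around the central vein, and Cyp2f2 mainly around the portal vein.

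Total counts ran from 24829693 to 37823155 per sample, and 3 counts corresponded to 0.0839 to 0.118 CPM (counts scaled by library size with trimmed mean of M-values, TMM). Rbfox2 was at 13.96, 20.5, 19.04, 17.9 and 23.2 CPM in WT 1 to WT 5 and at 6.84, 8.61 and 12.4 CPM in Rbfox2 KO 1 to Rbfox2 KO 3, so the groups did not overlap. The difference of -1.03 ± 0.21 (SE) on the log2 scale had an adjusted p of 0.328 by edgeR and 0.00182 by DESeq2. Transcripts of 8 hepatocyte marker genes summed to 76658 to 85646 CPM in WT and to 73259.7, 83949 and 86013 CPM in Rbfox2 KO samples. In bulk tissue, fewer cells of a type and less RNA per cell cannot be told apart. Rbfox2 KO 1 stood apart from the other samples. All 14 pancreatic exocrine markers were highest there, with a summed level of 486 CPM. In WT that sum was 4.78 to 17.5 CPM, and the other Rbfox2 KO samples had 5.94 and 4.87 CPM. None of these markers was at 0 in all samples. Its TMM factor of 1.29 was also the highest. The log2 fold changes of all tested members are plotted with and without this sample, and the part of the pancreatic transcripts in any of them was not tested.

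The members are hard to separate from one another by sequence. Of the 58 members, 31 shared more than 20% of their longest coding transcript with other genes in windows of 50 bases, 10 shared none, and for 45 the closest gene was of the same subfamily. How reads with several alignments were counted is not stated, so counts of close paralogues are uncertain. The first 100 coding bases (GRCm38, GENCODE M21) of the genes on which the comparison turned are shown to make this visible, with capitals for bases that differ from the first gene of each group. Cyp2c38 differed from its closest relative Cyp2c39 at 8 of these 100 bases, and their whole coding sequences were 94.2% identical.
Cyp2c38 (chr19:39462955-39463054, minus strand): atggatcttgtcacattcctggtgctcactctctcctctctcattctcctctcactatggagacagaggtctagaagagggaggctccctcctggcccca
Cyp2c39 (chr19:39510871-39510970, plus strand): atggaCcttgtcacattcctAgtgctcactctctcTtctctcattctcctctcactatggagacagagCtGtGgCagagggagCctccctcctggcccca

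Cyp2c37, Cyp2c54 and Cyp2c50 are neighbours on the same chromosome and behaved alike in Rbfox2 KO 1. Cyp2c50 differed from Cyp2c37 at 2 and Cyp2c54 at 4 of the first 100 coding bases. Coding identity was 96.1% between Cyp2c37 and Cyp2c50, 95.1% between Cyp2c37 and Cyp2c54, and 95.2% between Cyp2c50 and Cyp2c54.
Cyp2c37 (chr19:39992440-39992539, plus strand): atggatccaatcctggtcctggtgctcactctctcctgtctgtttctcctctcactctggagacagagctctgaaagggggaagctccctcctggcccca
Cyp2c50 (chr19:40089700-40089799, plus strand): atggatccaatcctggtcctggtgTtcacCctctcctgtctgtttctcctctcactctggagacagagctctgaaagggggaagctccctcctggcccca
Cyp2c54 (chr19:40073712-40073811, minus strand): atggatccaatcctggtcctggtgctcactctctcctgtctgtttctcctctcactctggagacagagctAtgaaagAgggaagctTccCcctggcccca

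Promoters of these genes were also compared. Windows from 250 bases before to 50 bases after the start site (RefSeq, GRCm38.p6) were matched for 50 of the 58 members, and are shown for the pairs above as far as the table held them. Over the stretch that both windows covered, identity was 82.99% between Cyp2c38 and Cyp2c39 (288 aligned positions) and 88.3% between Cyp2c37 and Cyp2c50 (299 aligned positions). Capitals mark matches, on either strand, to TATAAA (the TATA box) or AGTTCA (a nuclear receptor half-site). TATAAA began 31 bases before the start site of Cyp2c38 and 3 bases before the RefSeq start site of Cyp2c39, which lies 40 bases from the GENCODE start site of that gene, so these windows are offset.
Cyp2c38 (chr19:39463026-39463325, minus strand): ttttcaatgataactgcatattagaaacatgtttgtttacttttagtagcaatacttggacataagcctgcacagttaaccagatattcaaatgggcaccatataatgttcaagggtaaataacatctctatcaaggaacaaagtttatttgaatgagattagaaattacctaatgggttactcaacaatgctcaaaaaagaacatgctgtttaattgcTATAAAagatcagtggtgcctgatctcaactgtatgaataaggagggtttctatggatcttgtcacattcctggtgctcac
Cyp2c39 (chr19:39510572-39510871, plus strand): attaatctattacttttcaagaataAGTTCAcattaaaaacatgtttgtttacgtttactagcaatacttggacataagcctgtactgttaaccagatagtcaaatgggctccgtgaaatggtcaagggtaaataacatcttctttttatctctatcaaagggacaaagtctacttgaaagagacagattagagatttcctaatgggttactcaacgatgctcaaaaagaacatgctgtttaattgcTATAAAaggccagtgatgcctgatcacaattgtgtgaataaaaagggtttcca
Cyp2c37 (chr19:39992174-39992473, plus strand): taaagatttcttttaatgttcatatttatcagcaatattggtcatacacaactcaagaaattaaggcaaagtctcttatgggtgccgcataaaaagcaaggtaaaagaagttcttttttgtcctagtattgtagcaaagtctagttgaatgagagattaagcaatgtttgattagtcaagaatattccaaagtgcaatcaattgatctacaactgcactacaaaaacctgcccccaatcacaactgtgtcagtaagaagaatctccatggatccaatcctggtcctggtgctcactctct
Cyp2c50 (chr19:40089429-40089728, plus strand): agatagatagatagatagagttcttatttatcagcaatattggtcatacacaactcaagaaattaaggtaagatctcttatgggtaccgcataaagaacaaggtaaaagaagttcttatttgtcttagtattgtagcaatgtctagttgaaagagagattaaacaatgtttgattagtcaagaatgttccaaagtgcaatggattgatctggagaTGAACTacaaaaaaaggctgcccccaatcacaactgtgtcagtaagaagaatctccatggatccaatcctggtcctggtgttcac

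Across the 50 member promoters, TATAAA was present in 26 (52%), against 13.6% of all 32851 promoters. Members had 1 promoter each, while the 32851 were not limited to 1 per gene, so the shares come from unlike sets. Most of the 26 belonged to the Cyp2a, Cyp2c, Cyp2d and Cyp3a subfamilies of related sequence. CAAAGTCCA, the core of a site bound by HNF4A, was present in 8 (16%), against 0.475% of all promoters. Those 8 were Cyp2c40, Cyp2c65, Cyp2c67, Cyp2c68, Cyp2c69, Cyp2c70, Cyp3a11 and Cyp3a16, so 6 belonged to one Cyp2c cluster of related sequence. GCGTG, the core of the AHR site, was in 9 promoters (18%, against 32.4%), Cyp1a1 and Cyp1b1 among them. AGTTCA was in 6 (12%, against 14.0%) and TTCNNNGAA, the STAT5 site, in 2 (4%, against 8.30%). A match describes the letters of a short window, and binding was not measured.

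The liver expressed this family unevenly. Members together took 1.16% to 1.56% of all counts per sample, with 95% Wilson intervals no wider than 0.01 percentage points to either side, which cover counting error only. Of the 58 members, 43 passed the filter on low counts, 6 had counts below it and 9 had 0 counts in every sample. In WT livers Cyp2e accounted for 41.0% of summed member CPM, Cyp3a for 23.0%, Cyp2d for 13.4%, Cyp2c for 10.1% and Cyp2a for 4.51%. Per kilobase of transcript, WT levels were 3196 ± 233 CPM per kb (SD, n = 5) for Cyp2e1, which oxidises ethanol and paracetamol, and 1079.7 ± 129 for Cyp3a11, a PXR target. These 2 ranges did not touch, and both lay above every other member. Next in order were Cyp2d9 (368 ± 88.1), Cyp2d26 (356 ± 17.6), Cyp2d10 (290.4 ± 9.65), Cyp3a25 (275 ± 37.6) and Cyp2f2 (272 ± 41.5 CPM per kb), where WT samples of neighbouring genes overlapped, except that Cyp2d26 lay above Cyp2d10 in all 5 WT mice.

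The 9 members without a count were Cyp2b19, Cyp2b23, Cyp2c65, Cyp2c66, Cyp2j7, Cyp2j11, Cyp2j12, Cyp2j13 and Cyp2w1, the last an enzyme known from colon and tumours. A count of 0 allows a level of up to 0.0839 to 0.118 CPM, depending on the sample. Below the filter, Cyp2g1 had at most 11 counts in a sample, Cyp2j8 9, Cyp2s1 8, Cyp3a57 3 and Cyp2t4 1. Cyp2b10 was also under the filter, but with 207 counts in 1 sample.

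**Figure D1:**
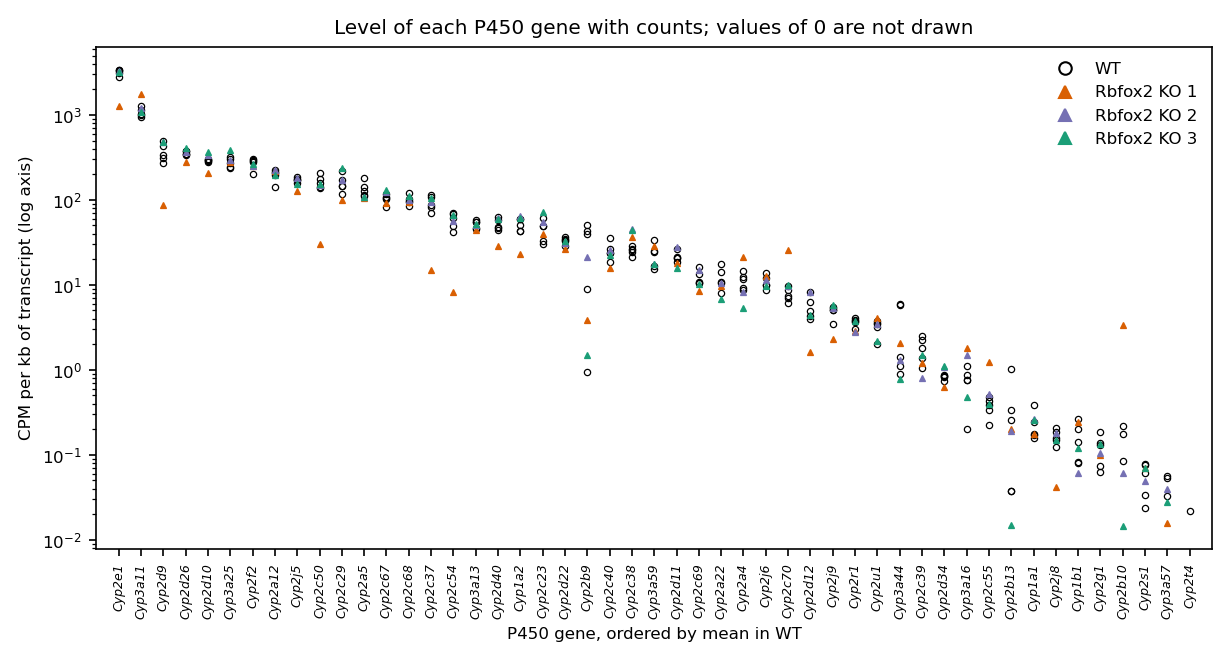
Level of the 49 members with any count, in CPM per kb of longest coding transcript on a log axis, ordered by the WT mean. Open circles are the 5 WT samples and triangles the 3 Rbfox2 KO samples. Levels span from 3196 for Cyp2e1 to below 0.1, and Rbfox2 KO 1 sits below the other samples for Cyp2e1, Cyp2d9, Cyp2c50, Cyp2c37 and Cyp2c54 and above them for Cyp2c70 and Cyp2b10.

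No P450 gene passed the edgeR test. At a Benjamini-Hochberg adjusted p of 0.05, 0 of the 43 tested members were called, as were 0 of all 14654 tested genes (0%), and limma-voom also called 0. At an unadjusted edgeR p under 0.05 there were 3 of 43 members (Cyp2c38, Cyp2c55 and Cyp2c70), or 6.98%, against 4.74% of all tested genes. In TMM-scaled CPM the groups did not overlap in 3 of 43 members, against 3.71% of all tested genes. Cyp2c38 and Cyp2c70 were higher and Cyp2a5 lower in Rbfox2 KO. Of these, only Cyp2c38 stayed without overlap under scaling by library totals. By DESeq2, 1 of 43 members (Cyp2c38) had an adjusted p under 0.05, against 0.409% of all genes tested by it. Tested members had a median log2 fold change of -0.081, with 17 higher and 26 lower in Rbfox2 KO, and that of all tested genes was 0.00095. Scaled by library totals in place of TMM factors, 24 were higher and 19 lower. Without Rbfox2 KO 1 the median was 0.069 against -0.012 for all genes, with 25 higher and 18 lower.

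**Figure D2:**
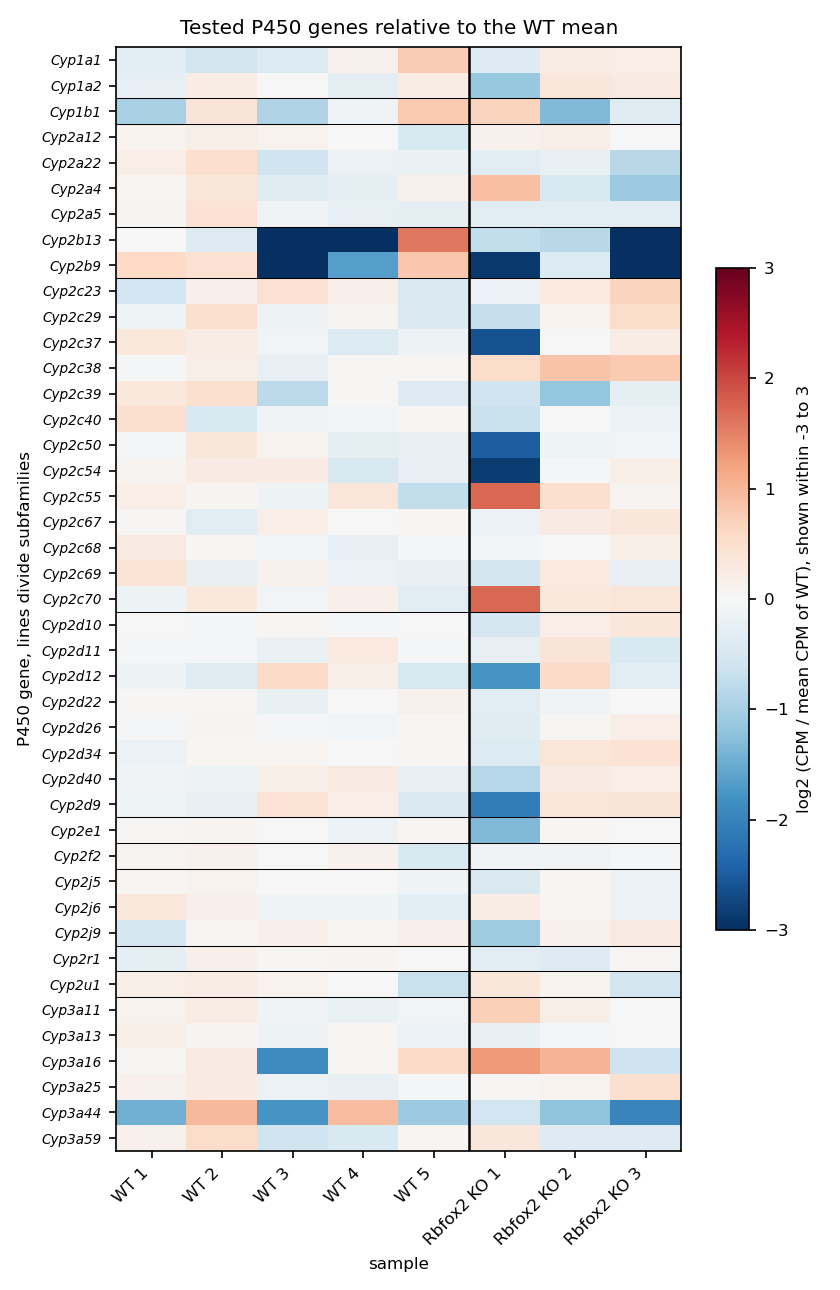
Log2 of CPM over the WT mean for the 43 tested members (vertical, lines divide subfamilies) in the 5 WT and 3 Rbfox2 KO samples (horizontal, thick line between groups), shown within -3 to 3. Cyp2c38 is higher in all 3 Rbfox2 KO samples, Cyp2c37, Cyp2c50, Cyp2c54 and Cyp2d9 are low in Rbfox2 KO 1 alone, and Cyp2b9, Cyp2b13 and Cyp3a44 differ widely among WT samples.

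Cyp2c38 was the member with the lowest p by edgeR, DESeq2 and limma-voom. It encodes an arachidonic acid epoxygenase and lies on chromosome 19, 39389556 to 39463075, minus strand (GRCm38). Its levels were 70.4, 82.5, 61.4, 74.1 and 75.3 CPM in WT 1 to WT 5 and 106, 131 and 126 CPM in Rbfox2 KO 1 to Rbfox2 KO 3. Every Rbfox2 KO sample was above every WT sample, and the spread was small in both groups. Means were 72.8 ± 7.71 CPM (SD, n = 5) and 121 ± 12.9 CPM (SD, n = 3), with a log2 fold change of 0.73 ± 0.11 (SE). The edgeR adjusted p over all tested genes was 0.138, and the two-sided exact permutation p was 0.0179, the smallest that 56 splits allow. DESeq2 gave an adjusted p of 1.99e-05, and called Cyp2c38 with each sample left out in turn, with adjusted p between 6.12e-06 and 0.00599. edgeR without the filter on low counts gave an adjusted p of 0.0411, and the edgeR log2 fold change ran from 0.67 to 0.81 with 1 sample left out, the highest without Rbfox2 KO 1.

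Cyp2c38 shares 23.3% of its transcript with other genes, mainly with Cyp2c39, a retinoic acid hydroxylase. Cyp2c39 was far lower, at 1.90 to 4.56 CPM in WT and at 2.16, 1.45 and 2.69 CPM in Rbfox2 KO samples, with overlapping groups and a log2 fold change of -0.62 ± 0.30 (SE). Summed over both genes, levels stood at 74.5, 87.1, 63.3, 77.4 and 77.8 CPM in WT and at 108, 132 and 129 CPM in Rbfox2 KO samples, which again did not overlap.

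Cyp2c70 synthesises muricholic acids, the hydrophilic bile acids of mice. Its WT levels were 12.1, 16.7, 12.6, 14.9 and 10.6 CPM and its Rbfox2 KO levels 43.9, 16.8 and 17.2 CPM. The groups did not overlap (exact permutation p = 0.0179). However, Rbfox2 KO 2 and Rbfox2 KO 3 were just above the highest WT sample, while Rbfox2 KO 1 was at 328% of the WT mean. Under scaling by library totals, Rbfox2 KO 2 and Rbfox2 KO 3 lay inside the WT range. On the log2 scale the difference was 0.96 ± 0.32 (SE), and edgeR gave a p of 0.0146 before and 0.882 after adjustment. Without Rbfox2 KO 1 the log2 fold change was 0.34. Cyp2c70 shares no sequence window with another gene.

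Cyp2c55, an arachidonic acid hydroxylase best known from the intestine, had low levels of 0.849, 0.776, 0.668, 0.944 and 0.444 CPM in WT and of 2.45, 1.02 and 0.783 CPM in Rbfox2 KO samples. Only Rbfox2 KO 1 and Rbfox2 KO 2 were above the WT range. The log2 fold change of 0.95 ± 0.39 (SE) became 0.29 without Rbfox2 KO 1. With all samples the edgeR p was 0.034 before and 0.99997 after Benjamini-Hochberg adjustment.

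Cyp2a5, the coumarin 7-hydroxylase, was lower without overlap in TMM-scaled CPM. WT samples had 287, 366, 254, 228 and 223 CPM and Rbfox2 KO samples 213, 217 and 216 CPM. The 3 Rbfox2 KO samples lay close together, just under the lowest WT sample. Under scaling by library totals, Rbfox2 KO 1 lay inside the WT range. The difference was -0.34 ± 0.16 (SE) on the log2 scale, with an adjusted p of 0.99997 by edgeR and an exact permutation p of 0.125. Cyp2a4, the testosterone 15-alpha-hydroxylase, has a coding sequence 98.4% identical to that of Cyp2a5, so the division of reads between the pair is uncertain. Cyp2a4 was at 15.2 to 25.1 CPM in WT and at 36.99, 14.4 and 9.29 CPM in Rbfox2 KO samples, highest of all 8 in Rbfox2 KO 1 and lowest in Rbfox2 KO 3. Its log2 fold change of 0.038 ± 0.41 (SE) became -0.75 without Rbfox2 KO 1 (edgeR p of 0.0111, adjusted p of 0.99978). Summed over Cyp2a4 and Cyp2a5, the groups overlapped, at 244 to 391 CPM in WT and 225 to 249.7 CPM in Rbfox2 KO samples.

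**Figure D3:**
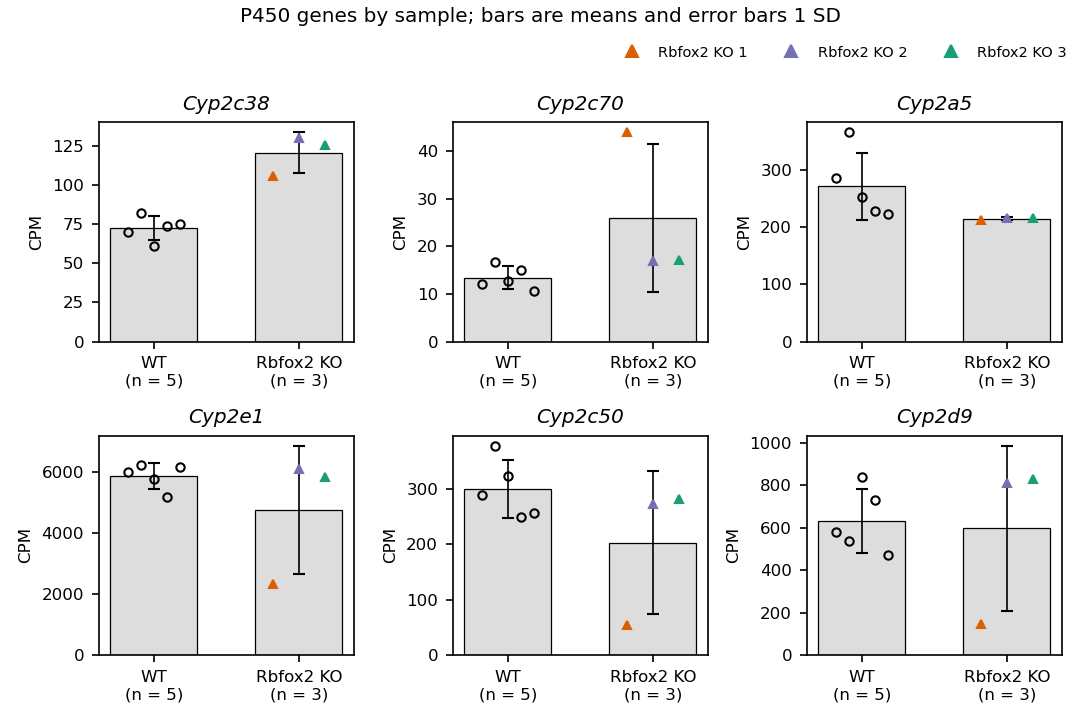
CPM by sample for 6 members, with bars for group means and error bars for 1 SD (5 WT, open circles, and 3 Rbfox2 KO, triangles). Upper panels show the members whose groups do not overlap in TMM-scaled CPM, Cyp2c38, Cyp2c70 and Cyp2a5. Lower panels show Cyp2e1, Cyp2c50 and Cyp2d9, where Rbfox2 KO 1 at 2324, 54.2 and 148 CPM lies below all other samples.

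In TMM-scaled CPM, P450 genes were often lower in Rbfox2 KO 1 than in the other 7 samples. Rbfox2 KO 1 was the lowest of the 8 samples in 19 of 43 tested members (44.2%) and the highest in 6 (13.95%), while it was the highest in 17.7% and the lowest in 16.8% of all tested genes. It was lowest in 7 of 8 tested Cyp2d and in 6 of 13 tested Cyp2c members. Summed member CPM was 13091 to 15638 in WT, and 10706, 15251 and 15004 in Rbfox2 KO 1 to Rbfox2 KO 3. The lower sum of Rbfox2 KO 1 depended on its TMM factor of 1.29. As a share of all counts, members took 1.37% in Rbfox2 KO 1, inside the WT range of 1.16% to 1.56%.

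Cyp2e1 contributed most to the lower TMM-scaled sum of Rbfox2 KO 1. It was at 5979.5, 6231, 5773, 5164 and 6147 CPM in WT and at 2324, 6085 and 5816 CPM in Rbfox2 KO samples. Rbfox2 KO 1 was at 39.7% of the WT mean, and the other 2 lay inside the WT range. Cyp2e1 supplied 21.7% of the member counts in Rbfox2 KO 1, and 38.8% to 44.4% in the other samples. The log2 fold change of -0.31 ± 0.27 (SE) became 0.016 without that sample.

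Cyp2c37, Cyp2c50 and Cyp2c54, which oxidise arachidonic acid, were lower in Rbfox2 KO 1 than in any other sample. Cyp2c37 was at 127 to 209 CPM in WT and at 27.3, 170.3 and 195 CPM in Rbfox2 KO samples. Cyp2c50 was at 248 to 377 CPM in WT and at 54.2, 272 and 282 CPM in Rbfox2 KO samples. Cyp2c54 was at 74.4 to 124 CPM in WT and at 14.5, 101 and 118 CPM in Rbfox2 KO samples. In Rbfox2 KO 1 they stood at 16.2%, 18.1% and 13.97% of the WT mean, and in the other 2 mice inside the WT range. Their log2 fold changes of -0.36, -0.56 and -0.42 became 0.11, -0.12 and 0.069 without Rbfox2 KO 1. Because reads may be divided wrongly among the 3, their sum was also taken, which stood at 609, 696, 605, 449.6 and 495 CPM in WT and at 96.01, 543 and 594 CPM in Rbfox2 KO samples. Of the genes on either side of them, Cyp2c69 was at 68.8% and Cyp2c70 at 328% of the WT mean in that sample.

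**Figure D4:**
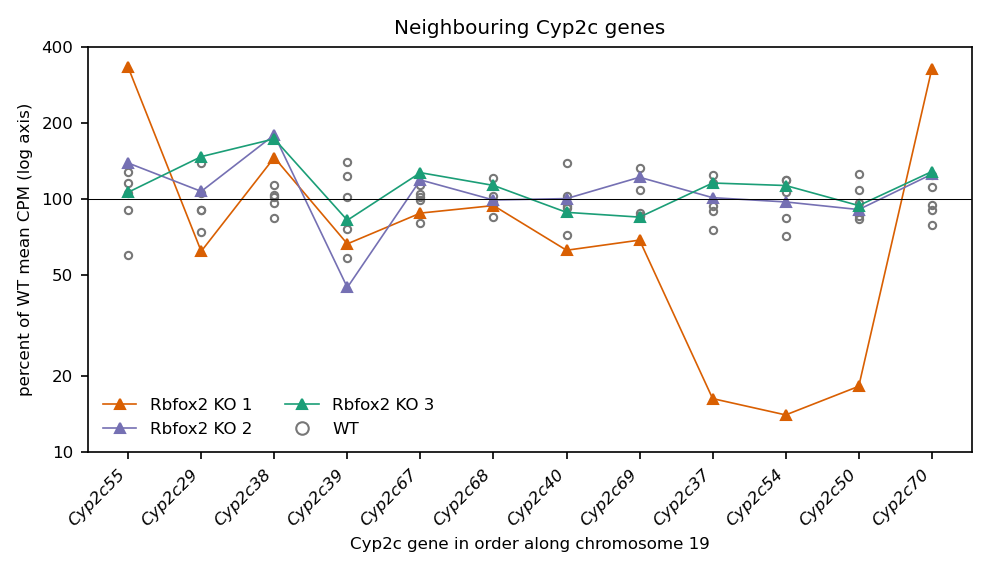
Level of the 12 tested Cyp2c genes of the main cluster on chromosome 19, in chromosomal order, as percent of the WT mean CPM on a log axis, with open circles for WT and triangles joined by lines for each Rbfox2 KO sample. Cyp2c38 is above all WT points in the 3 Rbfox2 KO samples, and Rbfox2 KO 1 is at 13.97% to 18.1% at Cyp2c37, Cyp2c54 and Cyp2c50 and stands at 333% and 328% at the outer genes Cyp2c55 and Cyp2c70.

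The groups overlapped in the remaining Cyp2c members. Cyp2c29, a close relative of Cyp2c38 with 89.1% coding identity, was at 209.9 to 395 CPM in WT and at 177, 305 and 419 CPM in Rbfox2 KO samples, lowest in Rbfox2 KO 1 and highest of all 8 in Rbfox2 KO 3. Cyp2c40, Cyp2c67, Cyp2c68 and Cyp2c69 share 76.9% to 91.5% of their transcripts with other genes and had overlapping groups, with log2 fold changes from -0.25 to 0.16. Cyp2c23, which lies apart from the cluster, was at 57.4 to 117 CPM in WT and at 75.96 to 137 CPM in Rbfox2 KO samples.

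The Cyp2d subfamily, which includes steroid and drug hydroxylases, summed to 1779.6 to 2115 CPM in WT and to 1098, 2206 and 2321 CPM in Rbfox2 KO 1 to Rbfox2 KO 3. The lowest and the 2 highest sums thus came from the same genotype. Cyp2d9, a testosterone 16-alpha-hydroxylase of male mice, was at 578, 537, 840.1, 728 and 469 CPM in WT and at 148, 812 and 829 CPM in Rbfox2 KO samples. Rbfox2 KO 1 was at 23.5% of the WT mean and the others near the upper end of the WT range, and the log2 fold change of -0.081 ± 0.50 (SE) became 0.38 without Rbfox2 KO 1. Cyp2d10 had the smallest WT spread of all tested members, with 457 to 499 CPM and a coefficient of variation of 3.32%. Its Rbfox2 KO levels of 338, 553 and 602 CPM all lay outside that range, 1 below and 2 above. Under scaling by library totals, only Rbfox2 KO 3 lay outside the WT range. Without Rbfox2 KO 1 its log2 fold change was 0.27 (edgeR p of 0.0254, adjusted p of 0.99978), against 0.057 ± 0.17 (SE) with all samples. Cyp2d22, the member often set beside human CYP2D6, was at 79.1 to 100.4 CPM in WT and at 72.6 to 90.8 CPM in Rbfox2 KO samples.

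In family 1, Cyp1a2, the enzyme of caffeine and arylamine metabolism, was at 84.4, 116, 97.9, 83.1 and 116 CPM in WT and at 45.1, 125 and 119 CPM in Rbfox2 KO samples. Rbfox2 KO 1 was below and the other 2 were above every WT sample. A log2 fold change of -0.044 ± 0.30 (SE) thus stood beside a spread wider than the WT range. Under scaling by library totals, Rbfox2 KO 2 and Rbfox2 KO 3 lay inside the WT range. Without Rbfox2 KO 1 the log2 fold change was 0.29 (edgeR p of 0.0933, adjusted p of 0.99978). Cyp1a1 and Cyp1b1, the inducible AHR targets, were low at 0.420 to 1.03 and 0.406 to 1.36 CPM in WT, and both overlapped with the Rbfox2 KO samples, at 0.471 to 0.708 and 0.315 to 1.25 CPM.

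The Cyp2b genes, the classical CAR targets, were among the most variable members in WT mice. Cyp2b9, a female-predominant member, was at 81.6, 73.6, 1.79, 16.99 and 93.9 CPM in WT 1 to WT 5 and 7.25, 40.3 and 2.82 CPM in Rbfox2 KO samples. The WT range alone spanned 52.4-fold, and the log2 fold change of -1.69 ± 1.35 (SE) had an unadjusted edgeR p of 0.254. Its neighbour Cyp2b13 was at 0.628, 0.485, 0.0703, 0.0699 and 1.89 CPM in WT and at 0.376, 0.354 and 0.0280 CPM in Rbfox2 KO samples. Both genes were highest in WT 5 and low in WT 3 and Rbfox2 KO 3, and they share 26.2% of their transcripts with each other. The low Cyp2b13 values rested on few reads, with 2 counts in WT 3 and 1 in Rbfox2 KO 3. Cyp2b10, the main CAR target of liver, was at 0.332, 0.162, 0, 0 and 0.414 CPM in WT and at 6.49, 0.118 and 0.0280 CPM in Rbfox2 KO samples. Rbfox2 KO 1 was the only sample with Cyp2b10 above 1 CPM. The CAR gene Nr1i3 was at 188 to 289 CPM in WT and at 75.05, 237 and 243 CPM in Rbfox2 KO samples, so the sample with most Cyp2b10 had the least Nr1i3. The log2 fold change of -0.40 for Nr1i3 became -0.029 without Rbfox2 KO 1.

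The wide WT range of the sex-dependent members was set beside 15 male-predominant genes outside these families. Their summed level was 6176, 6546, 13749.9, 9052 and 5187 CPM in WT 1 to WT 5, highest in WT 3, where Cyp2b9 was lowest and Cyp2d9 highest, and lowest in WT 5, where Cyp2b9 was highest and Cyp2d9 lowest. Other sex-dependent genes had another order. Cyp3a44 was highest in WT 2 and WT 4, and 15 female-predominant genes outside these families summed to 6192, 5529, 5137, 4896 and 5546 CPM in WT 1 to WT 5, highest in WT 1 and lowest in WT 4. In Rbfox2 KO samples the male-predominant genes summed to 7696, 10903 and 9969.8 CPM. Xist had at most 2 counts in any sample, and genes of the Y chromosome were expressed in all 8, with Ddx3y at 44.9 to 53.97 CPM in WT and at 45.02 to 54.8 CPM in Rbfox2 KO. Over all tested members the median coefficient of variation among WT mice was 18.1%, against 15.4% for all tested genes. The coefficient ran from 3.32% for Cyp2d10 to 119% for Cyp2b13, which had only 2 to 64 counts in WT samples.

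The groups overlapped in the tested members of Cyp2f, Cyp2r, Cyp2u and Cyp2j, and in Cyp2a12. Cyp2f2, a periportal enzyme that activates naphthalene, was at 535, 558, 515, 554 and 372 CPM in WT and at 470.4, 468 and 494 CPM in Rbfox2 KO samples. It was close to the WT mean in Rbfox2 KO 1, at 92.8%. Cyp2r1, a vitamin D 25-hydroxylase, was at 5.69 to 7.66 CPM in WT and at 5.31 to 7.05 CPM in Rbfox2 KO samples. Cyp2u1, a fatty acid hydroxylase, was at 8.87 to 16.4 and 9.57 to 17.8 CPM. Cyp2a12, which rehydroxylates bile acids, was at 240.2 to 375 and 334 to 373 CPM. Of the Cyp2j epoxygenases, Cyp2j5 was at 367 to 437 CPM in WT and at 297, 424 and 358 CPM in Rbfox2 KO samples, Cyp2j6 at 31.8 to 49.1 and 34.7 to 46.2 CPM, and Cyp2j9 at 7.02 to 11.1 and 4.71, 10.8 and 11.9 CPM, again lowest in Rbfox2 KO 1.

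Cyp3a11, the counterpart of human CYP3A4 and a PXR target, was at 2715, 2966, 2361, 2218 and 2394 CPM in WT and at 4127, 2860.4 and 2524 CPM in Rbfox2 KO samples. Rbfox2 KO 1 was above all others, at 163% of the WT mean, and the other 2 were inside the WT range. The log2 fold change was 0.33 ± 0.18 (SE) (edgeR adjusted p = 0.99997), and 0.083 without Rbfox2 KO 1. Cyp3a25 was at 469.8 to 646 CPM in WT and at 560.4, 594 and 764 CPM in Rbfox2 KO samples, and Cyp3a13 at 135 to 173 and 131 to 153 CPM. Cyp3a16 was low, at 1.33, 1.52, 0.351, 1.33 and 1.92 CPM in WT and at 3.14, 2.60 and 0.839 CPM in Rbfox2 KO samples, with a log2 fold change of 0.75 ± 0.50 (SE) that became 0.37 without Rbfox2 KO 1. Cyp3a44, a female-predominant gene, was at 2.18, 11.8, 1.76, 11.3 and 2.78 CPM in WT and at 4.02, 2.60 and 1.51 CPM in Rbfox2 KO samples, with WT 2 and WT 4 above the other 6 samples and a log2 fold change of -1.14 ± 0.79 (SE). The groups also overlapped in the tested members not yet named, Cyp2a22, Cyp2d11, Cyp2d12, Cyp2d34, Cyp2d40 and Cyp3a59, with log2 fold changes from -0.45 to 0.17. Apart from Cyp3a13, the tested Cyp3a genes share 41.7% to 68.1% of their transcripts with other genes.

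**Figure D5:**
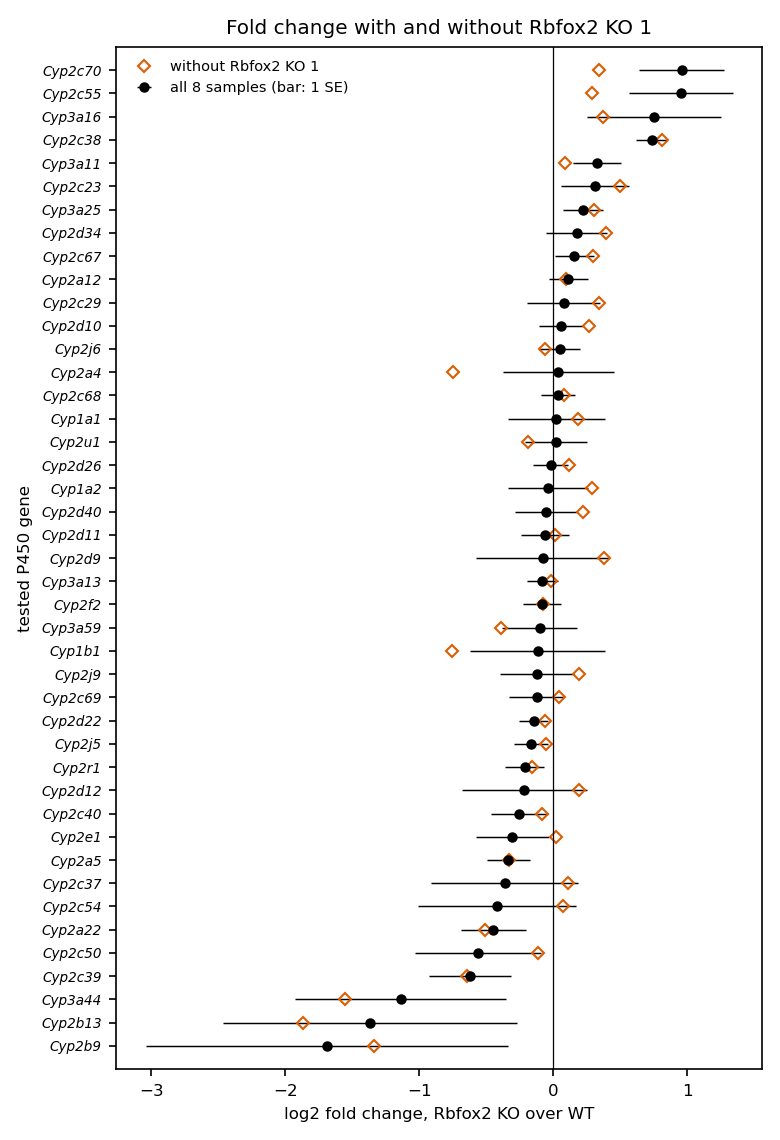
Log2 fold change (Rbfox2 KO over WT, edgeR) of the 43 tested members, with all 8 samples (filled circles, bars of 1 SE) and without Rbfox2 KO 1 (open diamonds). Cyp2c38 stays at 0.73 and 0.81, whereas Cyp2c70 moves from 0.96 to 0.34 and Cyp2a4 from 0.038 to -0.75.

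Genes that work with the P450 enzymes were read from lists, and no gene of any list passed an edgeR adjusted p of 0.05. An unadjusted edgeR p under 0.05 was seen in 0 to 4 genes of a list. The highest counts were 4 of 14 tested periportal genes and 4 of 19 tested liver and hormonal regulators, against 4.74% of all tested genes. The lists were chosen with earlier results of these data known. Among 11 tested receptor and partner genes, 5 were higher and 6 lower, and their median log2 fold change was -0.023. Nr1i2, which encodes PXR, was at 60.7, 61.3, 64.3, 60.1 and 63.1 CPM in WT and at 70.6, 69.9 and 72.5 CPM in Rbfox2 KO samples. The groups did not overlap in TMM-scaled CPM (log2 fold change 0.20 ± 0.077 (SE), edgeR adjusted p = 0.954). Under scaling by library totals, Nr1i2 in Rbfox2 KO 2 and Rbfox2 KO 3 lay inside the WT range. Ahr was at 18.6 to 32.7 CPM in WT and at 20.02 to 31.6 CPM in Rbfox2 KO samples. Of 19 liver and hormonal regulators, 11 were higher and 8 lower, and those with an unadjusted edgeR p under 0.05 included Foxa3 (log2 fold change 0.42), Ctnnb1 (0.21) and Cux2 (1.87, with 2.96 CPM in Rbfox2 KO 3 and at most 0.443 CPM in any other sample). Hnf4a was at 289.6 to 501 CPM in WT and at 334 to 472 CPM in Rbfox2 KO samples.

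Of 7 genes of electron donors and other P450 partners (Por, Cyb5a, Cyb5b, Cyb5r1, Cyb5r3, Pgrmc1 and Pgrmc2), 2 were higher and 5 lower. Por was at 212, 182, 239, 229.7 and 247 CPM in WT and at 244, 276 and 301 CPM in Rbfox2 KO samples, a difference of 0.30 ± 0.12 (SE) on the log2 scale with an edgeR adjusted p of 0.9955. Cyb5b, the outer mitochondrial cytochrome b5, was at 178 to 234 CPM in WT and at 123, 172 and 158 CPM in Rbfox2 KO samples. Its groups did not overlap in TMM-scaled CPM (log2 fold change -0.49 ± 0.14 (SE), edgeR adjusted p = 0.725). The microsomal Cyb5a was at 531 to 672 CPM in WT and at 482, 604 and 560.1 CPM in Rbfox2 KO samples. Of 12 haem genes, 4 were higher and 8 lower. Alas1, the rate-limiting enzyme of haem synthesis, was at 479, 337, 733, 569 and 579 CPM in WT and at 255, 558 and 399.6 CPM in Rbfox2 KO samples, lowest in Rbfox2 KO 1, and Hmox1, which degrades haem, was at 14.4 to 17.3 and 29.9, 16.3 and 18.5 CPM, highest in Rbfox2 KO 1. The log2 fold changes of -0.42 for Alas1 and 0.46 for Hmox1 became -0.18 and 0.14 without that sample. Of 20 tested CAR and PXR targets other than P450 genes, 11 were higher and 9 lower, with a median log2 fold change of 0.025. Without Rbfox2 KO 1 there were 8 higher and 12 lower, with a median of -0.067. Of the 21 in the table, 9 were highest and 5 lowest in Rbfox2 KO 1, against 17.7% and 16.8% of all tested genes. Abcc3 had a log2 fold change of -0.38 ± 0.16 (SE), with groups that overlapped. Of 4 tested AHR targets, 3 were higher and 1 lower.

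Zonated genes other than P450 genes were also read, since several members are pericentral. Of 15 pericentral genes, 1 was higher and 14 were lower in Rbfox2 KO, with a median log2 fold change of -0.15. Of all tested genes, 50.2% were higher. In TMM-scaled CPM, 11 of the 15 were lowest and 0 highest in Rbfox2 KO 1, against 16.8% and 17.7% of all tested genes. The pericentral genes summed to 3322 to 3718 CPM in WT and to 2455, 3952 and 3303 CPM in Rbfox2 KO samples. The lower pericentral sum of Rbfox2 KO 1 depended on its TMM factor of 1.29. Under scaling by library totals, that sum lay inside the WT range. Without Rbfox2 KO 1 there were 6 higher and 9 lower. Slc1a2, a pericentral glutamate transporter, was lower without overlap, at 75.8 to 109.9 CPM in WT and at 21.2, 47.5 and 56.9 CPM in Rbfox2 KO samples (log2 fold change -1.09 ± 0.28 (SE), adjusted p of 0.636 by edgeR and 0.0115 by DESeq2), and Tbx3 had a log2 fold change of -0.47 ± 0.17 (SE). Of 14 periportal genes, 13 were higher and 1 lower, with a median of 0.41, and without Rbfox2 KO 1 there were 12 higher and 2 lower. In Rbfox2 KO 1, 8 of the 14 were highest and 1 lowest. The periportal genes summed to 6179.9 to 7559 CPM in WT and to 9372, 7625 and 10000.5 CPM in Rbfox2 KO samples. Ass1, Gls2 and Hsd17b6 had log2 fold changes of 0.62, 0.44 and 0.90, and 0.46, 0.33 and 0.65 without Rbfox2 KO 1. Etnppl was at 75.5 to 118 CPM in WT and at 234, 127 and 205 CPM in Rbfox2 KO samples (log2 fold change 0.93 ± 0.20 (SE), adjusted p of 0.328 by edgeR and 0.0053 by DESeq2). No list was tested as a set.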

How the data were processed

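Liver RNA of 5 WT and 3 Rbfox2 KO mice was compared, with groups and sample numbers taken from the labels. The files hold deposited counts of reads for each Ensembl gene, not normalised. Per the labels and the study's methods, the authors sequenced poly(A)-selected libraries as paired ends, demultiplexed reads with CASAVA (1.8.4 in the processing notes, another version in the methods), aligned them to GRCm38 with TopHat2 2.0.11 as stranded libraries, and counted with featureCounts. The strand setting of the counting and the handling of reads with several alignments are not given in the sources used here. Symbols came from GENCODE M21 of the same build, for 45229 of 46078 genes. No sample column was left without a sample.

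Genes were filtered with filterByExpr, which left 14654. Groups were compared in edgeR 4.0.16 (R 4.3.3) by its quasi-likelihood F test, robust, after TMM scaling, with no term beside genotype, and p-values were adjusted by Benjamini-Hochberg over all tested genes, with a threshold of 0.05. The SE is the size of the log2 fold change divided by the square root of F. CPM values are TMM-scaled, and CPM per kb uses the longest protein-coding transcript. Differences of mean CPM of single genes were tested by two-sided exact permutation over 56 splits. The procedure was tested on simulated counts. Nothing in the labels says that the mice came from separate litters or batches, so p-values cover the spread between these samples.

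Alternatives were library totals, DESeq2 size factors, no filter, DESeq2 1.42.0, limma-voom (limma 3.58.1), a replicate block, each sample left out, and members sharing over 20% of their transcript left out. DESeq2 with each sample left out was added after the data were seen. The members, gene lists and named genes were chosen with earlier results of these data known. Named were members under an unadjusted p of 0.05, the highest member per kb of each subfamily, members of known role, members with 1 outlying WT sample, the deleted gene, main receptors and partners, and list genes under an unadjusted p of 0.05, of which 1 is not reported here. Cyp2d10, Cyp2d11, Cyp2d12, Cyp2d26, Cyp2d34, Cyp2d40, Cyp2a22, Cyp3a59, Cyp2c67, Cyp2c68, Cyp2c69, Cyp2c23 and the members with few counts were named after their values were seen. The same numbers occur in both groups for 3 samples, but mark different mice.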

Additional observations from a re-analysis of the deposited data

Results flagged for a closer look

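Among the 43 tested members, 1 WT sample stood far from the other 4 in 2 genes, where chance alone gives about 2.15 in 43. Cyp2f2 was at 372 CPM in WT 5 and 515 to 558 CPM in the other WT samples, a gap of 0.768 of the WT range. Cyp2j9 was at 7.02 CPM in WT 1 and 10.2 to 11.1 CPM in the others, a gap of 0.772 of the range.

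Cyp2b10 was under the filter on low counts and did not enter the edgeR test that used it. It had 6.49 CPM (207 counts) in Rbfox2 KO 1 and at most 0.414 CPM in any WT sample, and the other Rbfox2 KO samples had 0.118 and 0.0280 CPM, so the high value came from 1 mouse. The two-sided exact permutation p was 0.286. Of its transcript, 27.5% is shared with other genes.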

How the results depend on the processing

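The number of genes past an adjusted p of 0.05 was 0 in edgeR under every scaling, by limma-voom and with any sample left out, 6 without the filter on low counts and 59 by DESeq2, and that of members was 1 (Cyp2c38) under each of these last 2. Members at an unadjusted p under 0.05 ranged from 2 to 8 with 1 sample left out, with 6 without Rbfox2 KO 2 and 8 without Rbfox2 KO 3, against 3. By DESeq2, 2 members (Cyp2c38 and Cyp2c70) were called without Rbfox2 KO 2. The median log2 fold change of members ranged from -0.12 to 0.069 with 1 sample left out, positive without Rbfox2 KO 1, and the log2 ratio of summed CPM from -0.15 to 0.082. The median of members was 0.031 under library totals and -0.064 without members that share over 20% of their transcript. Under library totals the median of all genes was 0.12 and the split of unadjusted calls was 345 higher and 120 lower, against 353 and 341, and the sign turned for Cyp1b1 (0.035), Cyp2f2 (0.040), Cyp3a13 (0.016), Cyp2d11 (0.031), Cyp2d26 (0.058), Cyp2d40 (0.0084) and Cyp3a59 (0.045). limma-voom turned Cyp2a4 (-0.19) and Cyp2u1 (-0.0012), and DESeq2 turned Hnf4a (-0.0034 with its size factors in edgeR, -0.0027 in its own test). With 1 sample left out the sign turned for Cyp1a1 (-0.088 to 0.31), Cyp1a2 (-0.28 to 0.29), Cyp1b1 (-0.75 to 0.22), Cyp2a4 (-0.75 to 0.38), Cyp2c29 (-0.24 to 0.34), Cyp2c37 (-0.77 to 0.11), Cyp2c54 (-0.85 to 0.069), Cyp2d9 (-0.39 to 0.38), Cyp2e1 (-0.53 to 0.016), Cyp2j6 (-0.062 to 0.15), Cyp2j9 (-0.36 to 0.19), Cyp2u1 (-0.19 to 0.23), Cyp2c68 (-0.049 to 0.11), Cyp2c69 (-0.38 to 0.041), Cyp2d10 (-0.10 to 0.27), Cyp2d11 (-0.34 to 0.10), Cyp2d12 (-0.86 to 0.19), Cyp2d26 (-0.15 to 0.12), Cyp2d40 (-0.23 to 0.22), Cyp3a59 (-0.39 to 0.076), Hnf4a (-0.13 to 0.11) and Cela1 (-0.00043 to 1.65), given as the range over the 8 fits. Outside the replicate block, all other log2 fold changes of tested members, of main partners and of list genes with an unadjusted p under 0.05 kept their direction, and 8 values crossed to an adjusted p under 0.05 by DESeq2 or without the filter. None of the genes whose sign turned was past the threshold in edgeR, and the cause was not tested.

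Deviations of same-numbered samples correlated at 0.163, 0.0484 and 0.170. Those of samples with different numbers correlated at -0.41 to 0.37. So few pairs cannot settle whether equal numbers mark a pairing. With the replicate block, 0 genes passed an adjusted p of 0.05 and 739 an unadjusted one, against 694, and the block turned the sign of Cyp1b1 (0.21), Cyp2a12 (-0.020), Cyp2a4 (-0.22), Cyp2c29 (-0.077), Cyp2c68 (-0.048), Cyp2d11 (0.0014), Cyp2j6 (-0.082) and Cyp2u1 (-0.19).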

Other observations

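Marker genes of other liver cells were read beside the P450 genes. The 6 Kupffer cell markers summed to 177 to 202 CPM in WT and to 247, 189 and 253 CPM in Rbfox2 KO samples, and Marco, a scavenger receptor of these cells, was at 9.02 to 13.5 CPM in WT and at 22.2, 18.5 and 30.9 CPM in Rbfox2 KO samples (log2 fold change 1.16 ± 0.18 (SE), adjusted p of 0.138 by edgeR and 1.96e-05 by DESeq2). Cd5l had a log2 fold change of 0.44 ± 0.13 (SE). Endothelial markers summed to 143 to 159 CPM in WT and to 133, 149 and 156 CPM in Rbfox2 KO samples. Stellate cell and fibroblast markers summed to 151 to 193 CPM in WT and to 249.6, 144 and 180.2 CPM in Rbfox2 KO samples, and cholangiocyte markers to 20.6 to 32.4 CPM in WT and to 31.97, 25.01 and 28.2 CPM in Rbfox2 KO samples. Lymphocyte markers summed to 1.65 to 9.66 CPM in WT and to 2.92, 1.73 and 2.01 CPM in Rbfox2 KO samples, with Cd79a and Ms4a1 at log2 fold changes of -1.58 ± 0.67 (SE) and -1.97 ± 0.83 (SE). Adipocyte markers summed to 0.874 to 1.65 CPM in WT and to 3.23, 0.118 and 1.68 CPM in Rbfox2 KO samples.

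Skeletal muscle markers summed to 49.5, 18.4, 8.61, 265 and 357 CPM in WT 1 to WT 5 and 226, 1.38 and 6.94 CPM in Rbfox2 KO 1 to Rbfox2 KO 3, so samples of both groups carried them. Acute phase genes summed to 11586 to 14629 CPM in WT and to 14481, 12948 and 14118 CPM in Rbfox2 KO samples. Saa4 among them was at 128 to 174 and 104, 107 and 115 CPM, without overlap in TMM-scaled CPM. The 15 female-predominant genes outside families 1 to 3 summed to 4896 to 6192 CPM in WT and to 3142, 8098 and 8922 CPM in Rbfox2 KO samples, and Ntrk2 among them was at 0.858 to 1.89 and 6.12, 2.83 and 1.87 CPM (DESeq2 adjusted p = 0.0444, edgeR adjusted p = 0.542).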
